A study of Mus musculus with 12 samples.

Results

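The insulin-like growth factor (IGF) genes described here are 9: the ligands Igf1 and Igf2, the receptor Igf1r, and the binding proteins Igfbp2, Igfbp3, Igfbp4, Igfbp5, Igfbp6 and Igfbp7. They were found by symbol among 24054 genes counted in 12 mouse libraries, and all 9 were among the 14860 genes with enough reads to be tested. They were chosen from the measured values of these same libraries, so their levels and fold changes are given as a description, with no p-value, and the calls of the fit over all genes are used for them as labels, not as evidence. Of 3 groups with 4 libraries each, BTPRZ-T is tumour of the genotype BrafV600E;Tgfbr2-/-;Rnf43-/-/Znrf3-/-;p16 Ink4a-/-, BT-T is tumour of the genotype BrafV600E;Tgfbr2-/-, and N is wild type normal colon from beside the tumours. The tumours grew from edited colonic organoids that were engrafted, and the strain is the immunodeficient NSG for all 3 groups. Organoids are epithelial, so stromal cells in an engrafted tumour come from a host that carries none of the edits, and the counts hold RNA of both. Both tumour groups carry the activated kinase allele BrafV600E and lack the TGF-beta receptor Tgfbr2. BTPRZ-T also lacks the WNT receptor ubiquitin ligases Rnf43 and Znrf3 and the cell cycle inhibitor p16 Ink4a. The labels give no age, leave it unstated whether a group holds separate animals or organoid lines, and p-values then measure the spread between these libraries, which may be technical.

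IGF1 and IGF2 are secreted growth factors that bind IGF1R, a receptor tyrosine kinase that signals through insulin receptor substrates to PI3K and AKT and through SHC to the RAS pathway. The binding proteins hold IGFs outside the cell, extend their lifetime and can either block or deliver them to the receptor, and proteases free the ligand by cutting the binding protein. IGFBP7 is a more distant relative that binds IGFs weakly. In the gut, fibroblasts, smooth muscle and macrophages are known sources of IGF1, and epithelial cells carry the receptor.

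Reads in genes numbered 15.7M to 26.1M per library, and a gene with 3 reads stood at 0.105 to 0.203 CPM (the reads of a gene scaled to a common library size, with TMM factors). All 9 epithelial markers checked had reads in every library. Whole-gene counts do not show the edits: Rnf43 ranged over 82.9 to 193 CPM in BTPRZ-T, 56.9 to 87.2 CPM in BT-T and, in N, 19.3 to 74.6 CPM, and Cdkn2a, which encodes p16 Ink4a, over 18.8 to 31.4, 8.21 to 15.8 and 0.230 to 0.354 CPM in the same groups. N replicate 2 stood apart from the other N libraries, with 10.96% of reads in ribosomal protein genes against 1.59 to 1.94%. That share was 9.09, 4.65, 3.64 and 5.52% in BTPRZ-T replicates 1 to 4 and 1.86 to 2.73% in BT-T, so it moved with the groups too, and its part in the results was not tested. The 3 libraries with the fewest detected genes were BTPRZ-T replicate 4 (13450), N replicate 2 (14175) and BTPRZ-T replicate 1 (14697). Fits without these 3 hold only replicates 2 and 3 of BTPRZ-T.

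Igf1 was higher in both tumour groups than in normal colon. In BTPRZ-T replicates 1 to 4 it stood at 56.1, 46.6, 53.5 and 80.3 CPM, in BT-T at 69.6, 134, 132 and 189 CPM, and in N at 8.69, 24.5, 10.6 and 23.7 CPM. Every tumour library lay above every N library, while the highest BTPRZ-T library passed the lowest BT-T library. Means were 59.1 ± 14.7 CPM in BTPRZ-T, 131 ± 48.9 CPM in BT-T and 16.9 ± 8.39 CPM in N (SD, n = 4 each). Log2 fold changes were 1.81 ± 0.39 (SE) for BTPRZ-T against N and 2.96 ± 0.41 for BT-T against N. Igf1 lies on chromosome 10 from 87858265 to 87937042 (GRCm38, plus strand).

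Igf2, the ligand best known for its fetal role and its imprinting, was at a low level, with means of 6.86 ± 4.31 CPM in BTPRZ-T, 7.80 ± 3.09 CPM in BT-T and 12.3 ± 3.61 CPM in N (SD, n = 4 each). It stood at 2.65, 3.64, 10.5 and 10.7 CPM in BTPRZ-T, at 4.63, 7.94, 6.66 and 11.96 CPM in BT-T and at 14.7, 7.78, 15.7 and 11.1 CPM in N. All 3 groups overlapped, and neither tumour group was called different from N, a call being an adjusted p under 0.05 in the edgeR fit of all genes (log2 fold change -0.84 ± 0.48 for BTPRZ-T and -0.66 ± 0.48 for BT-T). Igf2 lies on chromosome 7 from 142650766 to 142666816 (minus strand). It overlaps Igf2os on the other strand, and reads were counted by strand. Reads that Igf2 shares with the annotated Gm49394 on its own strand could be set aside as ambiguous and not counted, so its level is less certain. On the same chromosome, the non-coding H19, 72622 bases away and named here for its position after its values were seen, stood at 6.90, 0.574, 0.0551 and 0.0436 CPM in BTPRZ-T, at 7.004, 1.70, 2.50 and 4.00 CPM in BT-T and at 0.461, 1.15, 0.709 and 0.607 CPM in N. Every BT-T library lay above every N library, and no H19 difference from N was called (edgeR quasi-likelihood adjusted p = 0.551 for BTPRZ-T and 0.262 for BT-T). BT-T against N was called with only these groups fitted and without the 3 libraries named above (adjusted p = 0.0292 and 0.0120), and without those 3 BTPRZ-T was called lower than BT-T (log2 fold change -3.51, adjusted p = 0.0156). That last fit leaves out BTPRZ-T replicate 1, which held the highest H19 level of its group. Ins2, 11839 bases to the other side, had 0 reads in all libraries.

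The balance between the ligands followed from those levels. Per kilobase of the longest annotated transcript, the Igf1 level was 14.2, 8.57, 3.42 and 5.03 times that of Igf2 in BTPRZ-T, 10.1, 11.3, 13.3 and 10.6 times in BT-T, and 0.395, 2.11, 0.452 and 1.43 times in N. All tumour libraries had the higher ratio, and N libraries stood on both sides of an equal level. The lowest tumour ratio, 3.42, lay above the highest N ratio, 2.11. With the length of all annotated exons instead, the ratios were 2.95 to 12.3 in BTPRZ-T, 8.68 to 11.5 in BT-T and 0.341 to 1.82 in N. By the longest transcript, the ratios spread more in BTPRZ-T (7.81 ± 4.78, SD, n = 4) than in BT-T (11.3 ± 1.42, SD, n = 4).

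**Figure D1:**
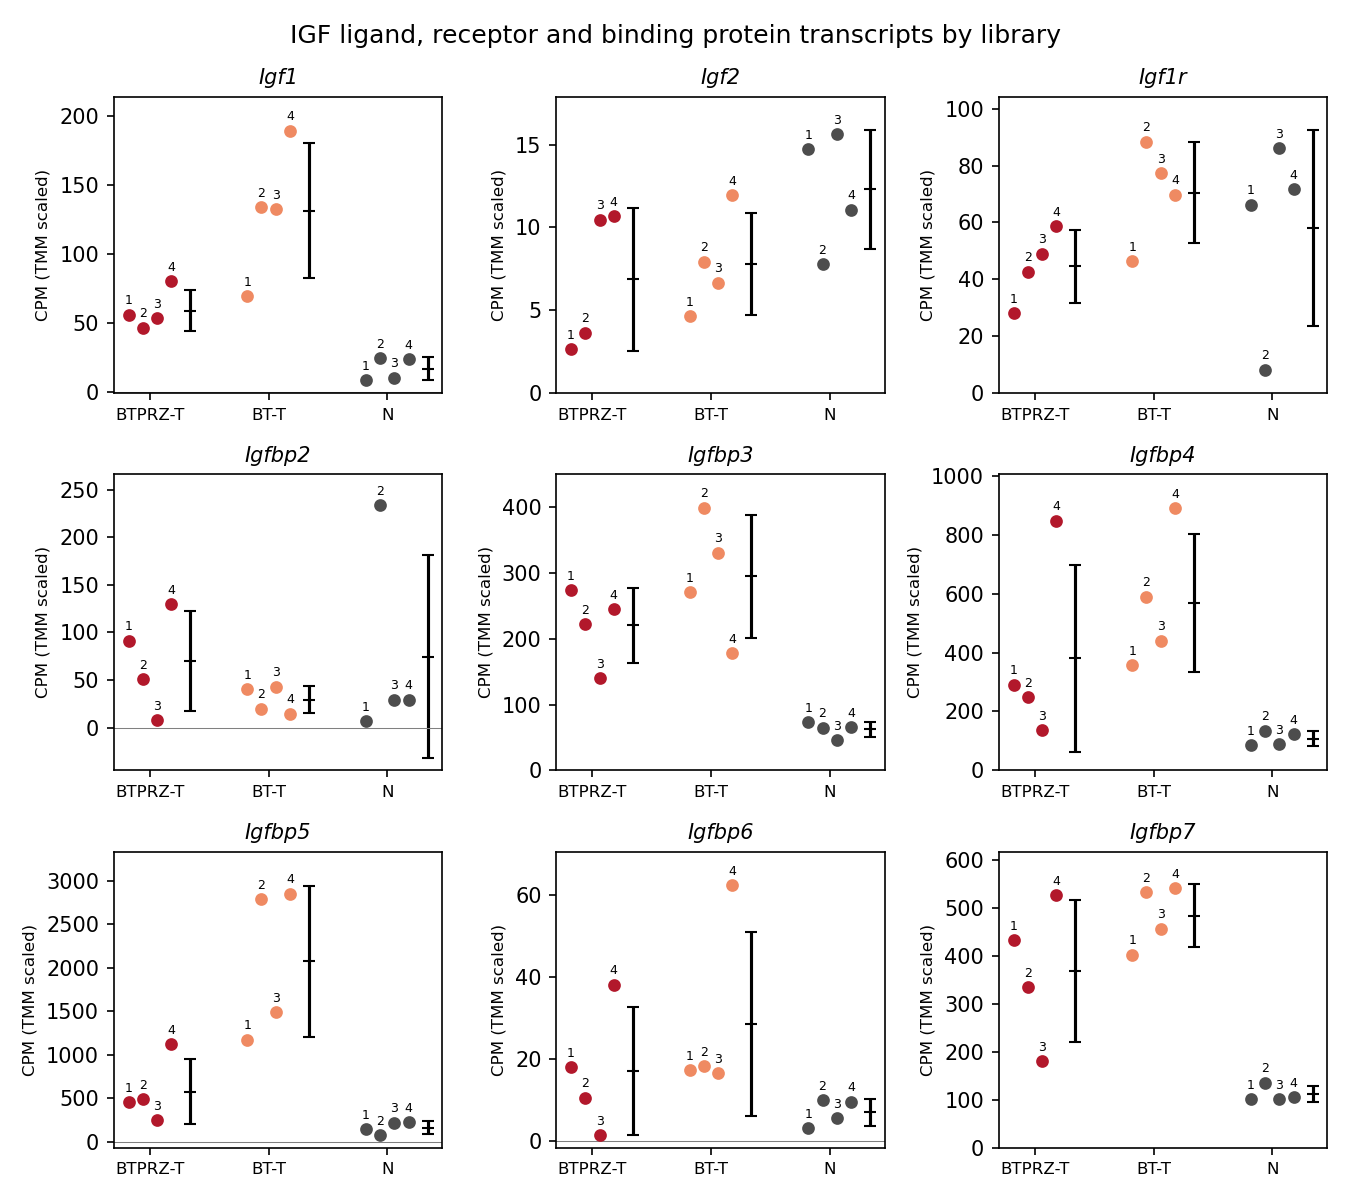
Levels of the 9 IGF genes in CPM (TMM scaled), one panel per gene with its own axis from 0 or below, for BTPRZ-T, BT-T and N; points are libraries numbered by replicate, and bars are mean ± SD of 4. Igf1, Igfbp3, Igfbp4, Igfbp5 and Igfbp7 have every tumour library above every N library, and Igfbp2 has N replicate 2 at 233 CPM.

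Igf1r was not called different in any comparison, and 1 library set its spread. It stood at 28.0, 42.7, 49.0 and 58.7 CPM in BTPRZ-T, at 46.4, 88.4, 77.2 and 69.7 CPM in BT-T and at 66.2, 8.12, 86.2 and 71.6 CPM in N. N replicate 2 lay far under the others of its group. Its log2 fold change was -0.38 ± 0.52 against N in BTPRZ-T, -0.66 ± 0.52 for BTPRZ-T over BT-T and 0.28 ± 0.52 for BT-T against N. Without N replicate 2, BTPRZ-T against N was -0.74 and was called lower, and BT-T against N was -0.08. Igf1r lies on chromosome 7 from 67952827 to 68233668 (plus strand).

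Of the binding proteins, Igfbp3, the main carrier of IGFs in blood, was higher in both tumours. It stood at 274, 222, 140 and 245 CPM in BTPRZ-T, at 271, 399, 331 and 178 CPM in BT-T and at 72.9, 64.8, 45.5 and 65.8 CPM in N. Tumour and N libraries did not overlap. Its log2 fold change was 1.82 ± 0.30 for BTPRZ-T against N and 2.24 ± 0.30 for BT-T against N, and it stood within 1.70 to 1.99 and 2.06 to 2.42 when each library was left out in turn. It lies on chromosome 11 from 7206086 to 7213923 (minus strand), 3539 bases from Igfbp1, which had 1 read over all 12 libraries.

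Igfbp7, which is widely found in vessel walls and in stroma, was higher in both tumours as well. It stood at 433, 335, 181 and 528 CPM in BTPRZ-T, at 404, 534, 458 and 542 CPM in BT-T and at 102, 137, 102 and 106 CPM in N. No tumour library reached down to an N library. Means were 369 ± 148 CPM in BTPRZ-T, 484 ± 65.8 CPM in BT-T and 112 ± 16.7 CPM in N (SD, n = 4 each), with log2 fold changes of 1.73 ± 0.31 for BTPRZ-T against N and 2.12 ± 0.31 for BT-T against N. The gene lies on chromosome 5 from 77349240 to 77408041 (minus strand) and overlaps Polr2b and Gm34648 on the other strand.

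Igfbp5, a binding protein that attaches to extracellular matrix, had the highest CPM in BT-T and the largest fold change of the 9 genes there. It stood at 456, 489.9, 247 and 1121 CPM in BTPRZ-T, at 1175, 2792, 1494 and 2854 CPM in BT-T and at 143, 74.2, 220.0 and 223 CPM in N. The 3 groups did not overlap, with BT-T highest and N lowest, although the highest BTPRZ-T library, 1121 CPM, lay close to the lowest BT-T library, 1175 CPM, and the lowest BTPRZ-T library, 247 CPM, lay close to the highest N library, 223 CPM. The log2 fold change was 1.81 ± 0.51 against N in BTPRZ-T, -1.85 ± 0.51 for BTPRZ-T over BT-T and 3.65 ± 0.55 for BT-T against N. Without BTPRZ-T replicate 4 it was 1.29 for BTPRZ-T against N, no longer called, and -2.43 for BTPRZ-T against BT-T, then called. The call of BTPRZ-T against N was also lost, at 1.75 to 1.99, without BT-T replicate 2, 3 or 4, BTPRZ-T replicate 1 or 2, or N replicate 1, 3 or 4, and at 0.99 without the 3 libraries named above. It lies on chromosome 1 from 72857932 to 72874884 (minus strand).

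Igfbp4, a binding protein known mainly as an inhibitor of IGF action and as the main substrate of the protease PAPP-A, was higher in both tumours too. It stood at 290.3, 248, 137 and 847 CPM in BTPRZ-T, at 357, 590, 440 and 890.3 CPM in BT-T and at 85.1, 134, 88.1 and 124 CPM in N. Tumour libraries all exceeded N libraries, with BTPRZ-T replicate 3, at 137 CPM, just above N replicate 2, at 134 CPM. The log2 fold change was 1.82 ± 0.50 for BTPRZ-T against N and 2.40 ± 0.51 for BT-T against N, and without BTPRZ-T replicate 4 the first was 1.07 and was not called. That call was also lost, at 1.72 to 1.89, without BT-T replicate 2 or N replicate 1, 3 or 4, and at 1.03 without the 3 libraries named above. Igfbp4 lies on chromosome 11 from 99041244 to 99054392 (plus strand).

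Igfbp6, which prefers IGF2, and Igfbp2 were not called against N. Igfbp6 stood at 18.1, 10.6, 1.38 and 38.2 CPM in BTPRZ-T, at 17.2, 18.3, 16.5 and 62.4 CPM in BT-T and at 3.11, 10.02, 5.61 and 9.58 CPM in N. Every BT-T library lay above every N library, while BTPRZ-T replicate 3 lay under all of N. Its log2 fold change was 1.27 ± 0.77 for BTPRZ-T against N and 2.01 ± 0.78 for BT-T against N, and 0.51 without BTPRZ-T replicate 4 and 1.29 without BT-T replicate 4, in that order. Both DESeq2, at 1.99, and the fit without the 3 libraries named above, at 2.30, called it higher in BT-T, and without those 3 libraries BTPRZ-T against N was 0.08 and not called. Igfbp6 lies on chromosome 15 from 102144362 to 102149511 (plus strand).

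Igfbp2 stood at 91.5, 51.2, 8.21 and 129 CPM in BTPRZ-T, at 40.8, 19.9, 43.3 and 14.7 CPM in BT-T and at 6.79, 233, 29.4 and 29.5 CPM in N. N replicate 2 held the highest level of all 12 libraries. The log2 fold change against N was -0.09 ± 0.93 for BTPRZ-T and -1.33 ± 0.95 for BT-T, and without N replicate 2 it was 1.68 for BTPRZ-T and 0.44 for BT-T, neither called. Igfbp2 lies on chromosome 1 from 72824503 to 72852474 (plus strand), and its end is 5457 bases from the end of Igfbp5. These neighbours differed in their pattern, with Igfbp5 highest in BT-T and Igfbp2 not.

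Counted together against N, 5 of the 9 genes were called higher in BTPRZ-T and in BT-T, namely Igf1, Igfbp3, Igfbp4, Igfbp5 and Igfbp7, and none lower. Of all genes, 5.66% were called higher and 6.18% lower in BTPRZ-T against N, and 5.67% higher and 2.9% lower in BT-T against N. Those values come from the contrasts that chose the genes, and N is shared by both comparisons, so nothing is read from them. In all, 5 genes in BTPRZ-T and 6 in BT-T, Igfbp6 being the added one, lay wholly above N, beside 6.88% and 13.4% of all genes, and none lay wholly below, beside 7.64% and 9.02%. The median log2 fold change of the 9 was 1.73 in BTPRZ-T and 2.12 in BT-T, beside -0.10 and -0.10 over all genes.

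**Figure D2:**
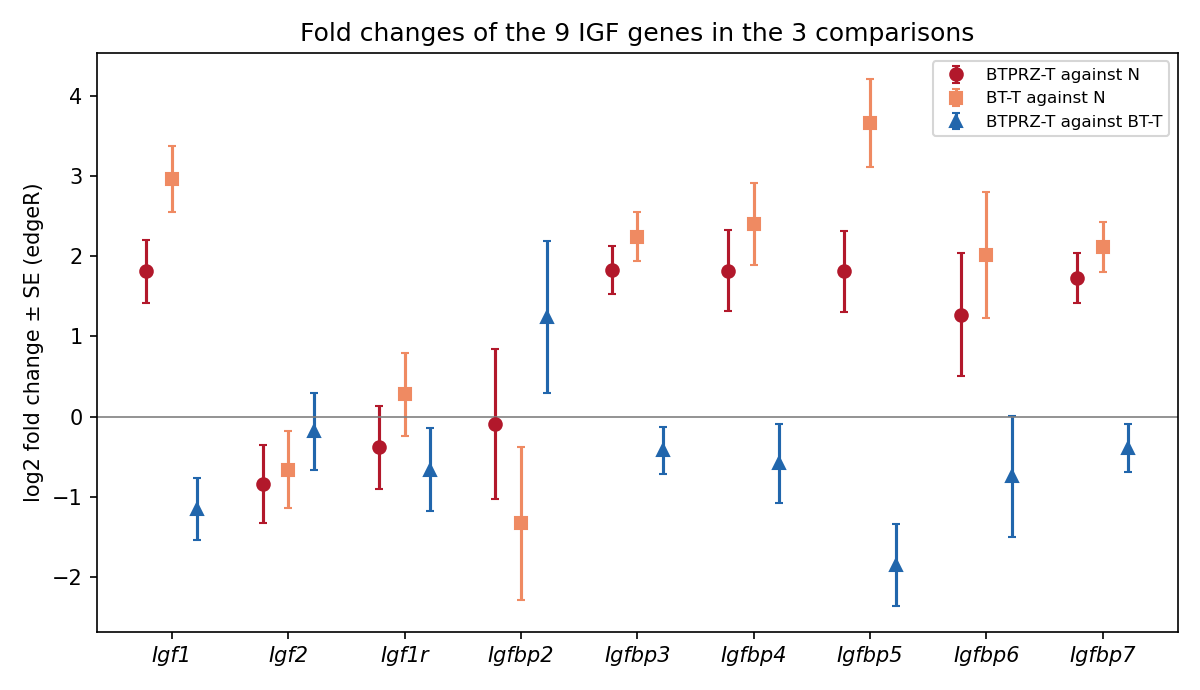
Log2 fold change (edgeR, error bars ± SE) of the 9 IGF genes for 3 comparisons, each tumour group over N and BTPRZ-T over BT-T. The marker for BT-T against N stands above that for BTPRZ-T against N in Igf1, Igf2, Igf1r and all binding proteins but Igfbp2, and Igfbp5 reaches 3.65 in BT-T against N and -1.85 between the tumours.

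Between the tumour groups, none of the 9 genes was called (edgeR quasi-likelihood; DESeq2 called 1, Igfbp5). Of all genes, 0.155% were called higher and 0.599% lower. Igfbp5 alone lay wholly lower in BTPRZ-T, beside 12.7% of all genes, and none lay wholly higher, beside 11.5%. The log2 fold change was -1.15 ± 0.38 for Igf1, -0.42 ± 0.29 for Igfbp3, -0.58 ± 0.49 for Igfbp4, -0.74 ± 0.76 for Igfbp6, -0.39 ± 0.30 for Igfbp7 and 1.24 ± 0.95 for Igfbp2. The 9 had a median of -0.58, beside -0.03 over all genes. Without the 3 libraries of fewest detected genes, 4 were called lower in BTPRZ-T, at -2.49 for Igfbp5, -1.56 for Igfbp4, -1.41 for Igf1 and -0.90 for Igfbp7, where 14.8% of all genes were. That fit leaves out BTPRZ-T replicates 1 and 4, and replicate 4 was the highest of its group for 8 of the 9 genes. Replicate 3, the lowest of BTPRZ-T for all 6 binding proteins, was kept. In that fit Igfbp6 was -2.22 and Igfbp2 0.03, neither called. Leaving out 1 library at a time, Igfbp6 ran from -1.56, without BTPRZ-T replicate 4, to -0.02, without BT-T replicate 4, Igfbp4 from -1.38 to -0.28 in the same fits, and Igfbp2 from 0.73, without BTPRZ-T replicate 4, to 1.61, without BTPRZ-T replicate 3. Without N replicate 2, which stands in neither group, Igf1 and Igfbp5 were called lower, where 8.23% of all genes were.

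On a scale that divides by transcript length, Igfbp7 had the highest group mean of the 9 transcripts in each group, at 308 ± 123 CPM per kilobase in BTPRZ-T, 404 ± 54.8 in BT-T and 93.0 ± 13.96 in N (SD, n = 4 each). In single libraries, Igfbp5 passed it in BT-T replicates 2 and 4, and Igfbp2 in N replicate 2. In BT-T, Igfbp5 was second at 346 ± 145 CPM per kilobase, less than 1 SD under Igfbp7, and Igfbp4 followed at 149 ± 61.2. In BTPRZ-T, Igfbp4, Igfbp5 and Igfbp3 stood at 99.3 ± 83.0, 96.3 ± 62.8 and 91.0 ± 23.7 CPM per kilobase and did not differ beyond their spread. In N, Igfbp2 was second at 57.2 ± 81.3 CPM per kilobase, with 179 in N replicate 2 and 5.20 in the lowest library. Next in N, Igfbp4, Igfbp5 and Igfbp3 stood at 28.1 ± 6.50, 27.5 ± 11.8 and 25.7 ± 4.84 CPM per kilobase, likewise within their spread. Igf2 was the least abundant in both tumour groups, at 1.45 ± 0.914 in BTPRZ-T and 1.65 ± 0.654 in BT-T, and Igf1 was the least abundant in N, at 2.39 ± 1.19, though within the spread of Igf2 at 2.61 ± 0.765.

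The binding proteins summed to 663 ± 329 CPM per kilobase in BTPRZ-T, 1068 ± 252 in BT-T and 238 ± 93.7 in N (SD, n = 4 each). Igfbp5 made up 14.1 ± 2.70% of that sum in BTPRZ-T, 31.3 ± 6.31% in BT-T and 13.4 ± 7.08% in N, so its share was larger in BT-T than in the other groups. The lowest BT-T share, 25.0%, lay above the highest in BTPRZ-T, 17.3%, and in N, 19.2%. Igfbp7 made up 48.0 ± 4.996% in BTPRZ-T, 38.5 ± 4.10% in BT-T and 41.5 ± 8.38% in N. In N replicate 2, Igfbp2 alone made up 47.5% of the sum.

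**Figure D3:**
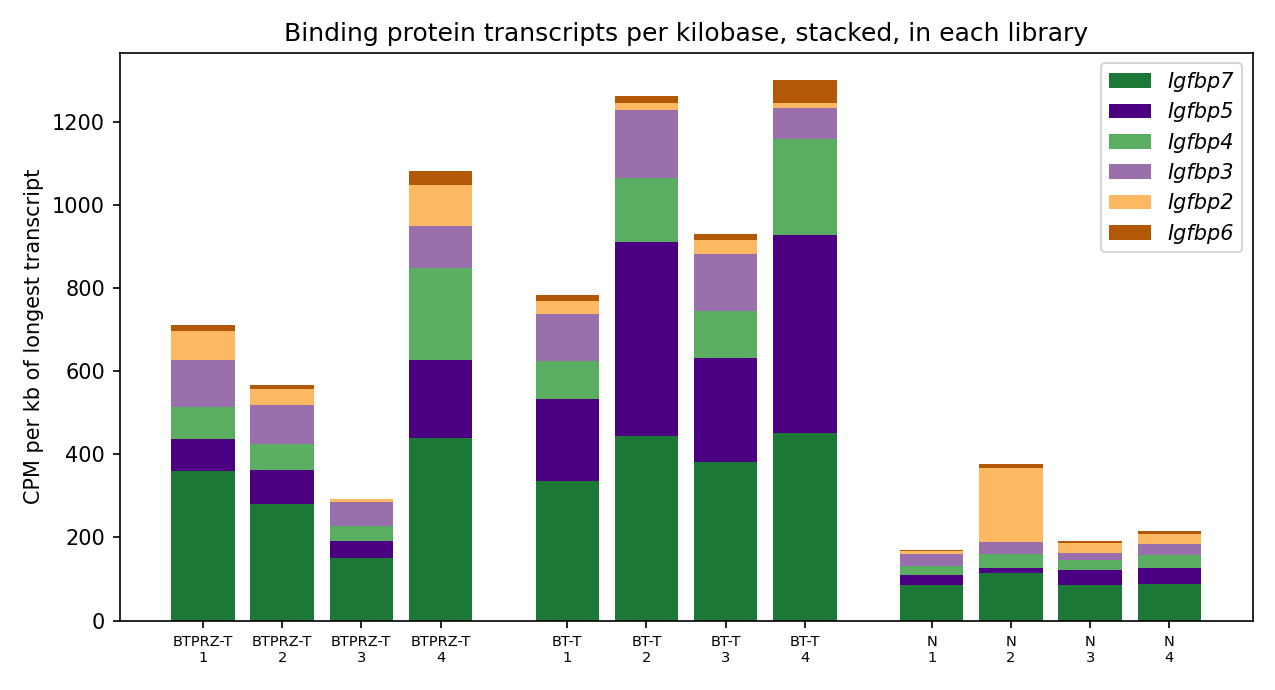
Binding protein levels in CPM per kilobase of the longest transcript, stacked for each library, with BTPRZ-T on the left, BT-T in the middle and N on the right. Sums run from 293 to 1082 in BTPRZ-T, 784 to 1300.0 in BT-T and 169 to 376 in N, and the Igfbp5 block is tallest in BT-T.

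The promoters of the 5 genes called higher in both tumours are shown for their first 100 bases upstream of the RefSeq start (GRCm38.p6). Capitals mark TATNNA, searched on the sense strand over the last 60 bases, or TGANTCA, searched on both strands over 250 bases. TGANTCA allows any base at its centre, where the AP-1 motif has C or G, and the Igf1 copy has A there. Igf1 (chr10:87861011-87861110, plus strand) holds TGANTCA, and Igfbp3 (chr11:7213924-7214023, minus strand), Igfbp4 (chr11:99041144-99041243, plus strand) and Igfbp5 (chr1:72874866-72874965, minus strand) hold TATNNA. Igfbp7 (chr5:77408046-77408145, minus strand) holds neither, and has 4 copies of GGGCGG, the motif of SP1 type factors, in 250 bases on both strands. None of these motifs overlap in the windows shown.
Igf1: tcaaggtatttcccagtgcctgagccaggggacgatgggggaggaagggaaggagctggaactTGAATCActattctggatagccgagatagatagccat
Igfbp3: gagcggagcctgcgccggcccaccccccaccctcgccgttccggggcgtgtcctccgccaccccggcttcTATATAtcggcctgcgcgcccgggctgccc
Igfbp4: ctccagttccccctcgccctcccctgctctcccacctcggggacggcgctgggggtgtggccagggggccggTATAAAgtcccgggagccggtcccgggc
Igfbp5: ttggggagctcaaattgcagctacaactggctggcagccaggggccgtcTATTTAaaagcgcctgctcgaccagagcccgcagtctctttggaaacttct
Igfbp7: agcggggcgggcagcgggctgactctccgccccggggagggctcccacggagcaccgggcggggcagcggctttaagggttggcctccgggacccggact

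All 9 genes matched the promoter table, with 13 entries in all. TATNNA was also found before Igfbp6, TGANTCA also before 1 of the Igfbp2 starts, and GGGCGG before Igf1r, Igf2 and Igfbp2 as well as Igfbp7. The first base of TATNNA lay at -30 from the start in Igfbp3, -28 in Igfbp4, -51 in Igfbp5 and -35 in Igfbp6, and TGANTCA lay at -37 in Igf1. Of 32851 RefSeq promoters, 11.96% held TATNNA in that window, 6.749% TGANTCA and 32.74% GGGCGG. None of the 3 motifs was found in all 5 promoters shown, and TATNNA was found in 3 of them.

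The levels moved with libraries as well as with groups. BTPRZ-T replicate 4 was the highest of its group for 8 of the 9 genes, all but Igfbp3, and replicate 3 was the lowest for all 6 binding proteins. Fibroblast markers moved with them: the 10 markers summed to 3830, 3143, 1896 and 8608 CPM in BTPRZ-T, 8704, 12731, 12141 and 16982 CPM in BT-T and, in N, 1263 to 2049 CPM. The sum was highest in BT-T and, within BTPRZ-T, in replicate 4. Collagens made up most of it, with Col1a1, Col1a2 and Col3a1 averaging 1215, 1044 and 1222 CPM in BTPRZ-T and 242, 259 and 640.1 CPM in N. Pdgfra and Postn averaged 54.0 and 193 CPM in BTPRZ-T and 55.4 and 202 CPM in N, so not all of the markers were higher in BTPRZ-T. In whole tissue, fewer cells of a type and less RNA per cell cannot be told apart. Macrophage markers (9) summed to 316 to 1613 CPM in BTPRZ-T, 758 to 1109 CPM in BT-T and, in N, 161 to 479 CPM, endothelial markers (9) to 347 to 675, 483 to 872 and 167 to 336 CPM, and smooth muscle markers (10) to 453 to 4769, 3601 to 5909 and 7201 to 18988 CPM. Of the 9 endothelial markers, 6 had a log2 fold change above 0 in BTPRZ-T against N. Cdh5 differed most, with means of 169 CPM in BTPRZ-T and 29.8 CPM in N. Kdr, Tek and Vwf averaged less in BTPRZ-T, at 20.7, 7.85 and 28.9 CPM, than in N, at 24.8, 12.1 and 32.4 CPM. Every marker of these 4 lists had reads in every library, and their part in the IGF results was not tested.

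Over the 8 tumour libraries, which span both genotypes and share those marker levels, Pearson's r between log2 levels and the fibroblast marker sum was 0.98 for Igfbp5, 0.90 for Igf1, 0.89 for Igfbp4, 0.86 for Igfbp7, 0.81 for Igfbp6, 0.70 for Igf1r, 0.52 for Igfbp3, 0.36 for Igf2 and 0.06 for Igfbp2. High values were not particular to fibroblast markers. With the macrophage sum r was 0.94 for Igfbp4, 0.92 for Igfbp7 and 0.77 for Igfbp5. The smooth muscle sum gave 0.95 for Igfbp7 and 0.90 for Igfbp6. For the endothelial sum r was 0.94 for Igfbp5, 0.90 for Igf1 and 0.86 for Igf1r. A sum of 5 pericyte markers gave 0.97 for Igfbp5. A sum of 6 enteric glia and neuron markers gave 0.92 for Igfbp7 and Igfbp6 and 0.91 for Igfbp4. An adipocyte marker sum, near 0 CPM in the tumours, gave 0.09 for Igfbp5 and 0.32 for Igfbp7. The 9 epithelial markers summed to 7855 to 17904 CPM in BTPRZ-T, 9337 to 11032 CPM in BT-T and, in N, 11895 to 13286 CPM. With that sum r was negative for all 9 genes over the same tumour libraries, from -0.88 for Igfbp4 to -0.33 for Igf2. These are descriptions with no test. The genes whose log2 levels over the 12 libraries were most like Igfbp5 were Lilra6 and Col5a1 (each r = 0.99), those most like Igf1 were Cybb, Acan and C2 (each r = 0.96), and those most like Igfbp7 were Sash3, Cyth4 and Foxs1 (r = 0.98 to 0.99). For Igfbp3 they were F10, Tmem173 and Gabrp (r = 0.96 to 0.97), for Igfbp4 Lbp, Tlr13 and Serpinf1 (each r = 0.97), and for Igfbp6 Ptgis, Lsp1 and C1qtnf7 (r = 0.92 to 0.95). Igf1r was most like Ttyh3, Rapgef2 and Nfix (r = 0.98 to 0.99), Igf2 most like Zfp462, E130308A19Rik and Tbc1d4 (r = 0.89 to 0.92), and Igfbp2 most like A330009N23Rik, Hat1 and Tuba1a (r = 0.90). The 12 libraries span tumour and normal colon, and these values were not recomputed within either.

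**Figure D4:**
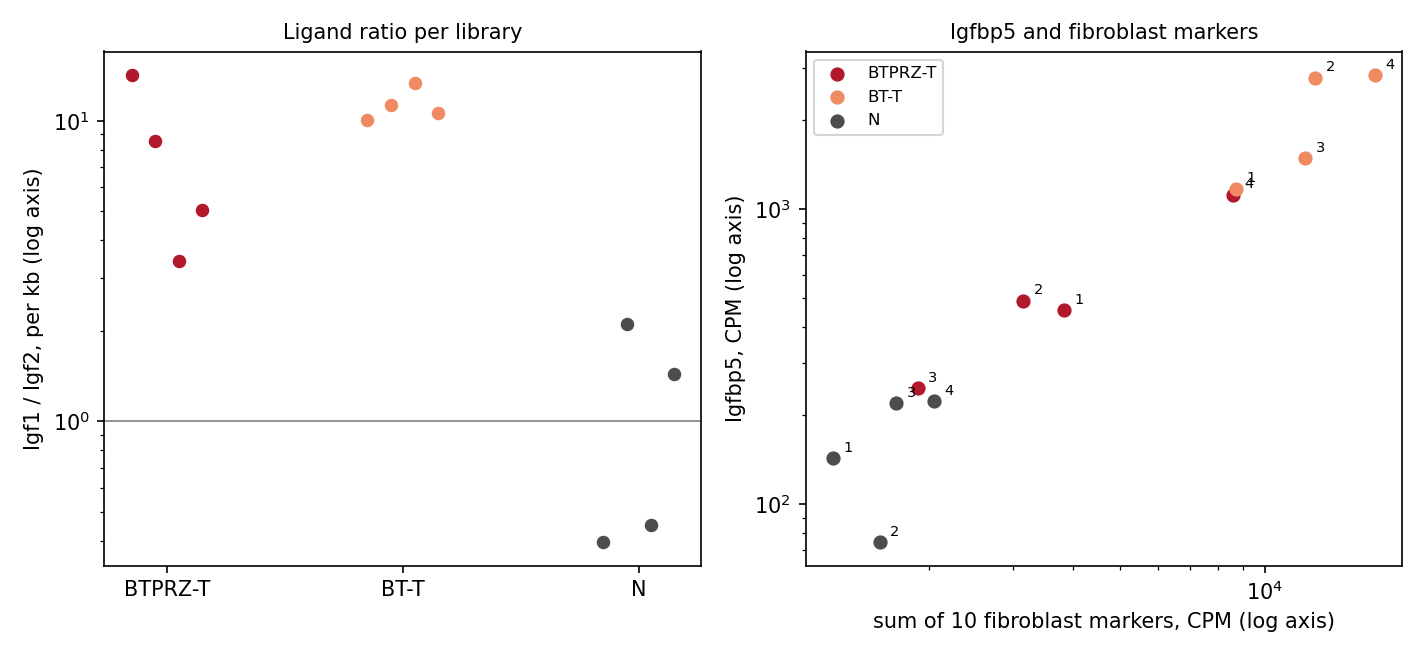
Left, ratio of Igf1 to Igf2 per kilobase in each library (log axis, line at an equal level); right, Igfbp5 in CPM against the sum of 10 fibroblast markers in CPM (both log axes), with points as libraries of BTPRZ-T, BT-T and N. Tumour ratios all lie above the N ratios, and Igfbp5 and the marker sum are both highest in BT-T, with N at the low end beside BTPRZ-T replicate 3.

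Among 29 other genes of the IGF system, 19 had enough reads to be tested. Of these, 2 were called higher and 1 lower in BTPRZ-T against N, and 3 higher and none lower in BT-T against N. Of all genes, 5.66% were called higher and 6.18% lower in the first comparison, and 5.67% and 2.9% in the second. With 19 genes, such counts are not read as a result about the list. The median log2 fold change was 0.20 and 0.61, beside -0.10 for all genes. Adam12, a protease that cuts binding proteins, was higher in both tumours. It stood at 11.4, 10.9, 5.56 and 43.6 CPM in BTPRZ-T, at 31.7, 30.5, 43.5 and 33.99 CPM in BT-T and at 0.806, 4.67, 1.60 and 0.945 CPM in N. The log2 fold change was 3.16 ± 0.69 for BTPRZ-T against N (edgeR quasi-likelihood adjusted p = 0.0119, and 0.0669 when only these 2 groups were fitted) and 4.13 ± 0.72 for BT-T against N (adjusted p = 0.00405). Tumour libraries all lay above N libraries.

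Irs1, an adaptor that links the receptor to PI3K, was higher in BT-T. It stood at 15.8, 17.7, 16.0 and 17.1 CPM in BTPRZ-T, at 31.1, 34.9, 34.6 and 37.4 CPM in BT-T and at 8.46, 4.53, 10.3 and 13.7 CPM in N. No group overlapped another. Its log2 fold change was 1.90 ± 0.30 for BT-T against N (edgeR adjusted p = 0.00237), 0.84 ± 0.29 for BTPRZ-T against N (adjusted p = 0.0803) and -1.05 ± 0.29 for BTPRZ-T against BT-T (adjusted p = 0.1005). DESeq2 called Irs1 in the last 2 comparisons too (adjusted p = 0.0273 and 0.00482), as did edgeR without N replicate 2 (adjusted p = 0.0283 and 0.00529), and without N replicate 4 the first was called (adjusted p = 0.0357).

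Pappa, which encodes the protease PAPP-A that cuts IGFBP4, was higher in BT-T. It stood at 11.4, 7.99, 14.5 and 8.60 CPM in BTPRZ-T, at 20.4, 37.3, 34.4 and 15.5 CPM in BT-T and at 5.53, 2.23, 4.55 and 13.6 CPM in N, and BT-T did not overlap N. The log2 fold change for BT-T against N was 2.05 ± 0.50 (edgeR adjusted p = 0.0247), and the call was lost when BT-T replicate 2 or 3 or N replicate 1 or 3 was left out, with adjusted p = 0.0670 to 0.0861. Stc2, whose product stanniocalcin-2 inhibits PAPP-A, was higher in BTPRZ-T than in N. It stood at 49.6, 39.8, 33.7 and 36.9 CPM in BTPRZ-T, at 6.31, 8.03, 49.4 and 6.18 CPM in BT-T and at 6.45, 5.96, 8.98 and 6.41 CPM in N, so 1 BT-T library was as high as BTPRZ-T. The log2 fold change for BTPRZ-T against N was 2.52 ± 0.62 (edgeR adjusted p = 0.0209, and 0.0612 and 0.0533 without N replicate 1 or 4), and DESeq2 gave it no p-value. Without BT-T replicate 3, Stc2 was called higher in BTPRZ-T against BT-T too, at 2.55 (adjusted p = 0.00909), against 1.19 ± 0.59 with it (adjusted p = 0.320).

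Insrr, an insulin receptor relative, was lower in BTPRZ-T than in N. It stood at 1.87, 1.29, 1.93 and 2.88 CPM in BTPRZ-T, at 6.45, 4.19, 2.00 and 3.75 CPM in BT-T and at 7.54, 5.35, 8.98 and 9.31 CPM in N, so BTPRZ-T lay wholly under N. Against N, its log2 fold change was -1.96 ± 0.45 (edgeR adjusted p = 0.0150, and 0.0533 with only these groups fitted). The most abundant uncalled genes of the list were Lrp1, Igf2r, Insr and Shc1. Igf2r, the receptor that clears IGF2, averaged 144 CPM in BTPRZ-T, 181 CPM in BT-T and 178 CPM in N. Shc1 was at 137, 121 and 90.5 CPM in the same groups (adjusted p = 0.0517 for BTPRZ-T against N and 0.179 for BT-T against N, edgeR). The first was called by edgeR without N replicate 2 or 4 (adjusted p = 0.0182 and 0.0460) and with the 2 CPM filter (adjusted p = 0.0421). Both were called by DESeq2 (adjusted p = 0.00211 and 0.0455). Without the 3 libraries of fewest detected genes, edgeR called both too (adjusted p = 0.0223 and 0.0259). Insr was called lower in BTPRZ-T against N without N replicate 2 (log2 fold change -1.04, adjusted p = 0.0192), against -0.73 ± 0.44 with it (adjusted p = 0.334). Between the tumours edgeR called none of the 19, beside 0.155% of all genes called higher and 0.599% lower. DESeq2 called 1, Irs1, beside 1217 of all genes. Unadjusted p-values of the 19 genes between the tumours are not counted here.

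Of 16 tested PI3K and AKT pathway genes, none was called in any comparison (edgeR quasi-likelihood). The number with an unadjusted p under 0.05 was 2 in BTPRZ-T against N and 1 in BT-T against N. Of all 14860 tested genes, 3784 and 3582 were under 0.05 in these comparisons. Between the tumours, unadjusted p-values of the 16 are not counted here. DESeq2 called 1 in BTPRZ-T against N, 0 in BT-T against N and 0 between the tumours, beside 3048, 2394 and 1217 of all genes. The kinase gene Akt1 stood at 228 to 328 CPM in BTPRZ-T, 249 to 282 CPM in BT-T and, in N, 218 to 254 CPM. The regulatory subunit gene Pik3r1 and the kinase gene Pdpk1 were both lowest in N replicate 2 within N. Without that library 6 of the 16 were called in BTPRZ-T against N, where 32.3% of all genes were, among them Pik3r1, at a log2 fold change of -1.23 (adjusted p = 0.00753) against -0.89 ± 0.48 with it (adjusted p = 0.280).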

How the data were processed

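Poly(A) RNA of 12 libraries was sequenced with a stranded kit as single reads of 100 bases, per the labels' protocols. Per the submitters' processing notes the tools were bcl2fastq 2.20, STAR 2.4.2a, edgeR 3.16.5, limma and HTSeq, with the mm10 genome. The deposited files hold raw read counts per gene symbol, not normalized by the authors. Which annotation supplied the symbols is not stated in those notes. The strand column with more gene reads was used; the other held 0.819 to 0.994% as many.

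Genes were filtered with filterByExpr, scaled by TMM and fitted in edgeR 4.0.16 (R 4.3.3) with glmQLFit (robust) and glmQLFTest over all 12 libraries and 1 mean per group. Tests were two-sided, p-values were adjusted by Benjamini-Hochberg over 14860 genes, and genes under 0.05 were called. The common biological coefficient of variation was 0.501. SE is the log2 fold change over the square root of F. The fit was tested on simulated counts, drawn for each gene around a common mean, with changes in BT-T only. The simulation held no outlying library such as N replicate 2, and its outcome is not used here. The genes, lists, named genes, comparisons and alternatives were chosen with earlier results of these data known. Named beside the 9 genes are every called gene of the context lists, up to 4 uncalled ones with the highest level, and 3 most alike genes, of which a few are left out here. Positions and transcript lengths are from GENCODE M21 (GRCm38), and promoters from RefSeq (GRCm38.p6).

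Alternatives were DESeq2 1.42.0, RLE factors, unstranded counts, no low-count filter or one of 2 CPM in 4 libraries, only the 2 compared groups, a replicate term, leaving out each library or the 3 with the fewest detected genes, and exon union length. Depth limits low genes: 3 reads were 0.105 to 0.203 CPM, a counting limit only.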

Additional observations from a re-analysis of the deposited data

Results flagged for a closer look

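Of 66 group and gene combinations examined, 9 had 1 library far from the other 3. A chance rate of about 1 in 20 assumes independent combinations, and these share libraries, so 9 of 66 is not set against it. The causes were not tested. In N replicate 2, Igfbp2 stood at 233 CPM against 6.79 to 29.5 CPM in the other N libraries, and Igfbp7 at 137 CPM against 102 to 106 CPM. In the same library Pdpk1 was at 52.5 CPM against 124 to 135 CPM, and Pik3r1 at 33.6 CPM against 205 to 216 CPM. So 4 of the 9 fell in that library, which also had the largest share of ribosomal protein reads.

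In BT-T, Igfbp6 was at 62.4 CPM in replicate 4 against 16.5 to 18.3 CPM, Pik3r1 at 167 CPM in replicate 4 against 134 to 139 CPM, and Stc2 at 49.4 CPM in replicate 3 against 6.18 to 8.03 CPM. Adam12 was at 43.6 CPM in BTPRZ-T replicate 4 against 5.56 to 11.4 CPM. Stc2 was at 8.98 CPM in N replicate 3 against 5.96 to 6.45 CPM.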

How the results depend on the processing

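The 5 IGF genes called higher in BT-T against N were called under every alternative run. In BTPRZ-T against N the calls of Igf1, Igfbp3 and Igfbp7 held under every alternative run, while that of Igfbp4 was lost under 7 of 20 and that of Igfbp5 under 12 of 20. All these fits reuse the libraries from which the genes were chosen, so calls that held are no added evidence. With each library left out in turn, the called IGF genes numbered 3 to 6 in BTPRZ-T against N, 5 to 5 in BT-T against N and 0 to 2 between the tumours. In the same order, other IGF system genes numbered 2 to 9, 2 to 5 and 0 to 3, PI3K and AKT genes 0 to 6, 0 to 0 and 0 to 1, and all genes 1076 to 4855, 624 to 2030 and 0 to 2714. Without the 3 libraries of fewest detected genes the counts were 3 and 4 IGF genes (BTPRZ-T against N and against BT-T), 9, 9 and 8 other IGF system genes, 7, 4 and 1 PI3K and AKT genes, and 5311, 4359 and 3723 of all genes. With DESeq2 they were 1 IGF gene between the tumours, 5, 5 and 1 other IGF system genes, 1 PI3K and AKT gene in BTPRZ-T against N, and 3048, 2394 and 1217 of all genes. With only the compared groups fitted they were 3 and 2 IGF genes (BTPRZ-T against N and against BT-T), 1, 6 and 4 other IGF system genes, and 647 and 1568 of all genes (BTPRZ-T against N and against BT-T). The r of same-numbered deviations was -0.30 to 0.32 over 12 pairs, and 5 pairs were over 0.1. Between BT-T and BTPRZ-T it was 0.32, 0.07, 0.10 and 0.10 for replicates 1 to 4. Libraries with different numbers were not compared, so whether the numbers pair the libraries was not tested. With the replicate block, 1160 genes were called in BTPRZ-T against N, 945 in BT-T against N and 1 between the tumours, and Igfbp5 in BTPRZ-T against N, at 1.67, and Pappa in BT-T against N (edgeR adjusted p = 0.0589) were not called. The causes were not tested.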

Other observations

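The other 10 of the 29 listed IGF system genes had too few reads for a test. Over all 12 libraries, Igfbp1 had 1 read, Igfals 35, Igfbpl1 11, Igf2os 31, Irs3 30 and Irs4 2, and the insulin genes Ins1 and Ins2 had 0. Of the IGF2 mRNA binding protein genes, Igf2bp1 had 98 reads and Igf2bp3 had 6.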
